A study of Mus musculus with 2 samples.

Results

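The Bcl2 family of apoptosis regulators was followed in MIN6 cells, a line from a mouse insulinoma that secretes insulin and stands in for pancreatic beta cells. The members were chosen by gene name: Bcl2, Bcl2l1, Mcl1, Bax, Bak1, Bcl2l11, Bbc3, Pmaip1, Bad and Bid. Of these 10 genes, 9 were measured among the 21542 genes of the table; Pmaip1, which encodes the BH3-only protein Noxa, was not analysed here. Each of 2 libraries came from MIN6 cells (labelled as strain C57BL/6) grown with D-glucose and serum and transfected with plasmid by lipofection. One library carried a control vector and the other a vector expressing the glucocorticoid receptor (GR), and both groups therefore went through transfection. What GR cDNA was used, how long after transfection cells were taken, and whether a glucocorticoid was added are points not given in the sources used here. There was 1 library per group, so the differences below could not be checked against replicates.

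Proteins of the Bcl2 family decide whether the outer membrane of the mitochondrion is breached during apoptosis. Bax and Bak1 form the pores, Bcl2, Bcl2l1 (Bcl-xL) and Mcl1 hold them back, and the BH3-only proteins Bcl2l11 (Bim), Bbc3 (Puma), Pmaip1, Bad and Bid bind the pro-survival proteins or engage the pore formers directly. Bcl2l11 is known as a gene that glucocorticoids raise in lymphoid cells, and beta cells are known to lose viability under prolonged glucocorticoid exposure. Much of the control of this family acts on protein stability, phosphorylation and location, which messenger RNA does not show.

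Sequencing depth was alike, with 18537326 gene-assigned reads under the control vector and 18525668 under the GR vector. Nr3c1, the gene of the receptor, rose from 2645 to 5202 reads between the control and the GR library. The gene counts do not separate vector transcripts from those of the cells' own gene. All 9 beta cell markers examined had over 100 reads in both libraries, with sums of 903635 and 854073 reads. The alpha and delta cell markers summed to 629 and 737 reads, fibroblast markers to 77 and 85, the acinar marker measured to 7 and 13, the endothelial one to 8 and 5, immune markers to 212 and 214, and the duct marker Krt7 to 2429 and 2166. Whether other cells had a part in any difference was not tested.

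The sequences around the start sites of Bcl2l11, Bax and Bcl2 are shown first. These were the 3 members with an unadjusted p under 0.05 in the exact binomial test described below. That cut served only to pick sequences to show. After adjustment Bcl2l11 passed 0.05, and Bax (adjusted p 0.140, exact binomial test) and Bcl2 (0.374) did not. Each window covers 250 bases before and 50 bases after the annotated start (RefSeq, GRCm38.p6), 5′ to 3′ on the strand of the gene. For Bcl2l11 the start nearest its deposited gene start is shown, and the window of its other annotated start held no FOXO site. In Bcl2l11 (chr2:128125788-128126087, plus strand) the capitals mark a FOXO site, GTAAACA, whose first base lies at position -227 from the start. In Bax (chr7:45466849-45467148, minus strand) they mark a p53 decamer at -201. In Bcl2 (chr1:106714241-106714540, minus strand) they mark 7 GC boxes, GGGCGG or its reverse complement.
Bcl2l11: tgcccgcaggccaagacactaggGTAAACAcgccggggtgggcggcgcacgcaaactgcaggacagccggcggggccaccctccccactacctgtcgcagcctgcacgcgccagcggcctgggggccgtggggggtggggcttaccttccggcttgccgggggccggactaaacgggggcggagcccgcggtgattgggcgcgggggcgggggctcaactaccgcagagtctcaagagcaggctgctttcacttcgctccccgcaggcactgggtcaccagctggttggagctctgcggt
Bax: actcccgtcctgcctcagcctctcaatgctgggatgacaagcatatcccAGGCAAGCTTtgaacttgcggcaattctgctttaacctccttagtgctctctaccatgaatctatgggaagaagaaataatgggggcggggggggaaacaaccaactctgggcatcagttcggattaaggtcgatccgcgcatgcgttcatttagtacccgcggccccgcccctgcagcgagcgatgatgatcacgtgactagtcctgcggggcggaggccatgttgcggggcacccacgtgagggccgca
Bcl2: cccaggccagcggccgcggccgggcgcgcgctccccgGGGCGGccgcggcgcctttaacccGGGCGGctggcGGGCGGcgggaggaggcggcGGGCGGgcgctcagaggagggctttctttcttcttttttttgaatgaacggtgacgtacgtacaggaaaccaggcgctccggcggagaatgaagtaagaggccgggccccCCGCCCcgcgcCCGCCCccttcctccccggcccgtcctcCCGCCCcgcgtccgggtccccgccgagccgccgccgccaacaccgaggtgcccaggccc

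The median window of the members held more CpG than the median of all windows, and 0 held the receptor elements searched. RefSeq gave 15 start windows for the 9 measured members, with a median of 27 CpG dinucleotides against 7 over all 32851 windows, and a median GC content of 65.7% against 52.7%. On both strands, 0 of the 15 windows held the hexamer AGAACA of the glucocorticoid response element, which 19.0% of all windows held. The full palindromic element occurred in 0 of them and in 0.00913% of all windows. The FOXO site occurred in 2 of the 15 windows, from Bcl2l11 and Bbc3 (3.65% of all windows). The p53 decamer occurred in 1, from Bax (8.36%), and the E-box CACGTG in 2, from Bax and Bbc3 (7.15%). Bcl2l11 and Bbc3 each also have a start window without these sites. Several windows can come from 1 gene, and some of Bbc3 overlap, so the 15 are not independent. GC boxes occurred in 10 of the 15 windows and in 35.7% of all windows; every member except Bak1 and Bcl2l1 had at least 1. The TATA box TATAAA (13.6% of all windows) and the composite site TGATGNAAT of CHOP and C/EBP factors (0.965%) occurred in 0 of the 15. GC boxes can overlap an adjacent match of the same motif. A match is a description of the letters in these windows and not evidence of binding. An absence covers these windows only, and sequence outside them was not searched. The shares were not adjusted for the higher GC content of the member windows.

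Of the 9 measured members, Bax was the most abundant transcript and Bcl2 and Bid were the least. Levels are compared here per length, as RPKM (reads per kb of the deposited gene length, scaled to the TMM library size). With the control vector Bax stood at 97.6, Mcl1 at 37.3, Bbc3 at 35.5, Bcl2l1 at 19.4, Bad at 11.9, Bak1 at 7.86, Bcl2l11 at 7.21, Bcl2 at 1.52 and Bid at 1.34. With the GR vector the levels were 90.8 for Bax, 37.9 for Mcl1, 35.6 for Bbc3, 18.4 for Bcl2l1, 12.3 for Bad, 8.47 for Bcl2l11, 7.84 for Bak1, 1.45 for Bid and 1.26 for Bcl2. The order was the same in both libraries apart from Bak1 and Bcl2l11, and Bcl2 and Bid, which changed places. The exact 95% Poisson intervals of these neighbours overlapped within each library, as did those of Mcl1 and Bbc3. Among the genes with a read in the control library, Bax lay at the 98.3rd percentile of level and Bcl2 at the 43.2nd. For every measured member but Bad the deposited length spans all exons annotated in GENCODE M21. The long gene models of Bcl2 (9157 bases) and Bcl2l11 (8029 bases) therefore lower their level per kb wherever shorter isoforms were made.

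**Figure D1:**
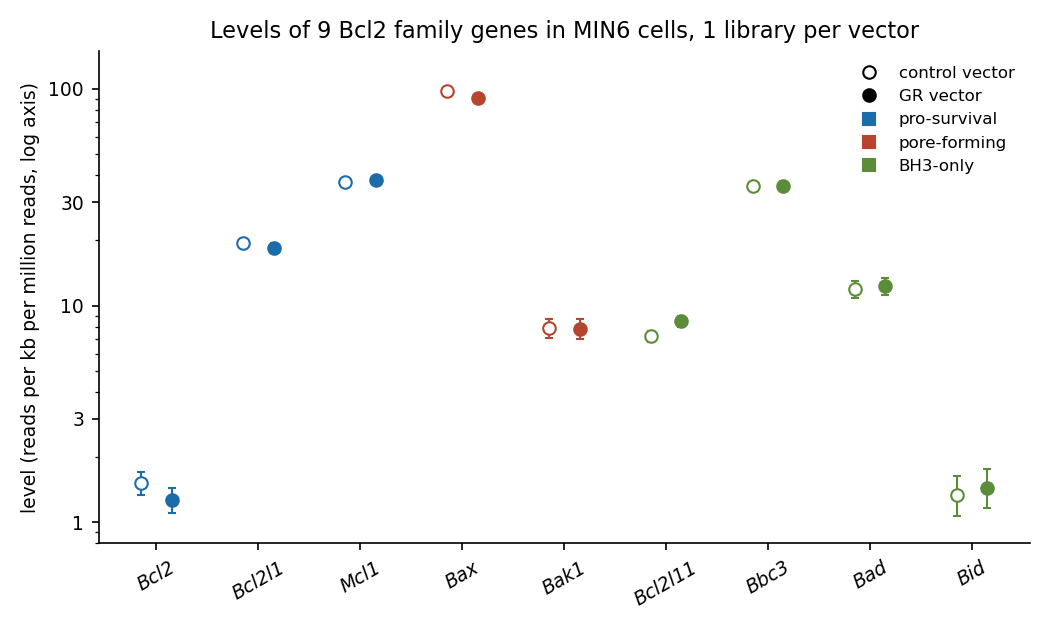
Level of each measured Bcl2 family gene in RPKM (log axis), with the control vector (open) and the GR vector (filled), coloured by role; bars are exact 95% Poisson intervals of 1 library each and lie within the symbol for the well-read genes. Bax stood at 97.6 and 90.8, and Bcl2 and Bid lay below 2 in both libraries.

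One member, Bcl2l11, differed between the libraries past the threshold, and it was higher with the GR vector. The library test used here is a two-sided exact binomial test on read numbers, adjusted by Benjamini-Hochberg over all 21542 genes, and it compares these 2 libraries, not the conditions. Past an adjusted p under 0.05 it called 1 of the 9 members higher and 0 lower. Over all genes it called 1.58% higher and 1.14% lower, 2.72% in all. A mean of 50 reads or more was reached by 12119 genes, all 9 members among them, and of these it called 4.52%. A count of 1 member is too small to set the family apart from that background. An unadjusted p under 0.05 in the exact binomial test was reached by 3 members. The share of all genes that reached it was not counted, so no meaning is given to that number. The median log2 fold of the 9 members was 0.0042, beside 0.0037 over those 12119 genes, with 5 members above a fold of 1 and 4 below. A fold past 1.1 in either direction was seen in 2 members and in 24.9% of the 12119.

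None of the 9 members passed in the authors' deposited table, where 0 had an adjusted p and 0 an unadjusted p under 0.05. Over all genes 0.0186% passed that adjusted threshold. The lowest unadjusted p of a member in the authors' deposited table was 0.541, for Bcl2, with a log2 fold change of -0.27. Those p-values equal an edgeR exact test with a preset dispersion of 0.04 to within 4.5e-08, so the spread behind them was assumed and not measured.

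Among the BH3-only genes, Bcl2l11 (ENSMUSG00000027381, chromosome 2, 128126038 to 128162547, plus strand) encodes Bim, which binds every pro-survival member. Its reads numbered 1075 under the control vector and 1258 under the GR vector. The fold was 1.17 (95% interval 1.08 to 1.27), and the exact binomial test gave an unadjusted p of 0.000117 (adjusted 0.009998). Among the 1670 genes within 1.25 times its mean reads, 1.2% had a fold at least as far from 1. With a preset dispersion of 0.01 (a coefficient of variation of 10% between libraries) the adjusted p of edgeR's exact test was 1 (0.0743% of all genes passed at that setting), so the call rests on counting error being the only spread. GENCODE M21 lists 5 protein-coding transcripts of the gene, and the gene counts do not separate the Bim isoforms, which differ in potency.

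The other BH3-only genes had intervals that included a fold of 1. Bbc3 (ENSMUSG00000002083, chromosome 7, 16308393 to 16318205, plus strand), which encodes the p53 target Puma, had 1398 reads in both libraries (fold 1.00, 95% interval 0.931 to 1.08). Bad (ENSMUSG00000024959, chromosome 19, 6941861 to 6951898, plus strand), whose protein is held inactive by phosphorylation downstream of growth factor signalling, had 443 and 456 reads (fold 1.03, 0.904 to 1.18). Bid (ENSMUSG00000004446, chromosome 6, 120891930 to 120916853, minus strand), which caspase-8 cleaves to link death receptors to mitochondria, had 88 and 95 reads (fold 1.08, 0.802 to 1.46). Bid was the least read member and had the widest interval of the 9. Summed reads of the 4 BH3-only members measured were 3004 and 3207.

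Of the pore formers, Bax had fewer reads with the GR vector but did not pass the adjusted threshold. Bax (ENSMUSG00000003873, chromosome 7, 45461697 to 45466898, minus strand) had 2856 and 2649 reads, a fold of 0.930 (95% interval 0.882 to 0.981). Its unadjusted p was 0.0073 and its adjusted p 0.140 in the exact binomial test, and 14.8% of the 1050 genes of like depth had a fold at least as far from 1. With the trend of log2 fold on GC content removed, its interval ran from 0.916 to 1.02. Bak1 (ENSMUSG00000057789, chromosome 17, 27019810 to 27029009, minus strand), which sits in the outer mitochondrial membrane before activation, had 351 and 349 reads (fold 0.997, 0.857 to 1.16).

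The 3 pro-survival genes had folds between 0.832 and 1.02, and 0 of them passed the adjusted threshold. Bcl2 (ENSMUSG00000057329, chromosome 1, 106538178 to 106714274, minus strand), the founding member of the family, had 258 and 214 reads. Its fold of 0.832 (95% interval 0.691 to 1.001, which holds 1) was the farthest from 1 of the 9 members. The exact binomial test gave an unadjusted p of 0.0478 (adjusted 0.374). At its depth 12.9% of 978 genes lay at least as far from 1. With the GC trend removed its fold was 0.811 (0.674 to 0.976), with an adjusted p of 0.363 in the exact binomial test. Bcl2l1 (ENSMUSG00000007659, chromosome 2, 152780668 to 152831728, minus strand), whose main product Bcl-xL supports beta cell survival, had 1652 and 1565 reads (fold 0.950, 0.886 to 1.02). It has 8 annotated protein-coding transcripts, which the gene counts do not separate. Whether the pro-apoptotic short form Bcl-xS is among them was not examined. Mcl1 (ENSMUSG00000038612, chromosome 3, 95658788 to 95663176, plus strand), which encodes a short-lived protein, had 2367 and 2399 reads (fold 1.02, 0.960 to 1.08).

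**Figure D2:**
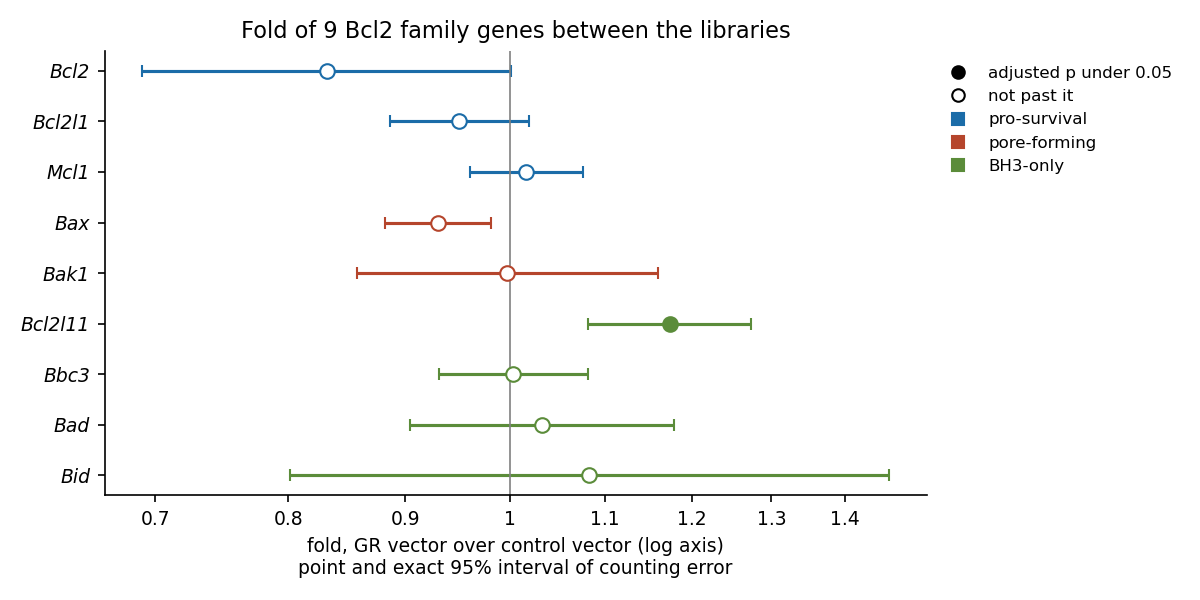
Fold of the GR library over the control library (log axis) with exact 95% intervals of counting error for the 9 measured genes, coloured by role; the filled symbol marks an adjusted p under 0.05. Bcl2l11, at 1.17, is the 1 filled symbol, and the intervals of 7 genes hold a fold of 1.

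**Figure D3:**
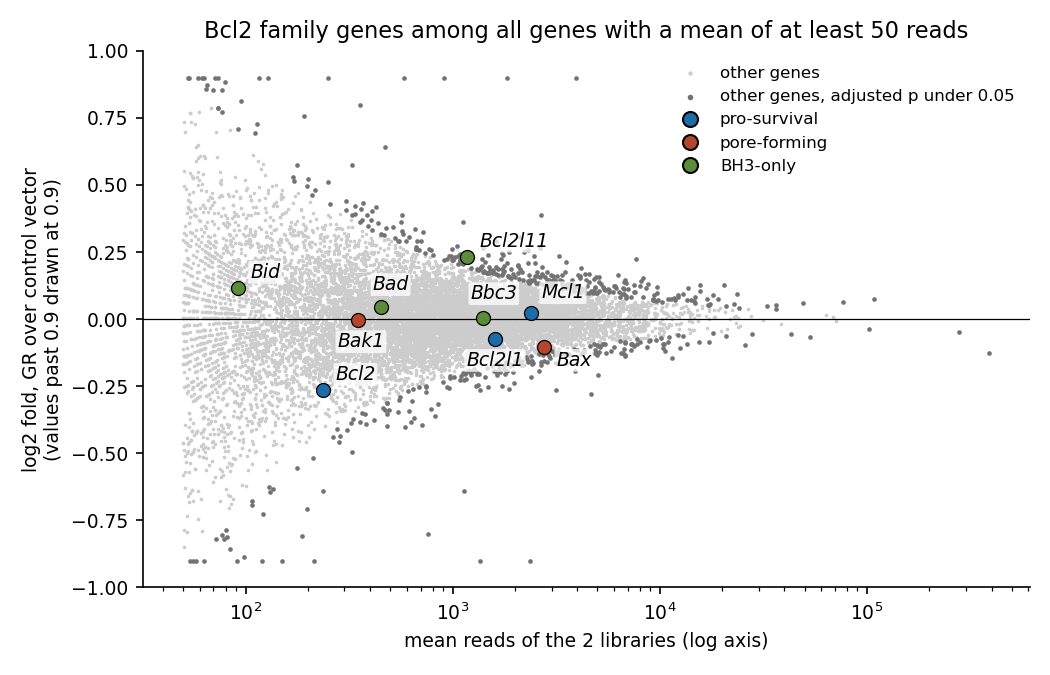
Log2 fold of the GR library over the control library against mean reads (log axis) for the 12119 genes read at least 50 times on average, with the 9 Bcl2 family genes coloured by role and genes past the adjusted threshold in dark grey. Bcl2l11 lies at the edge of the genes of its depth at 0.23, and Bax, at -0.10, and Bcl2, at -0.27, lie inside the light grey cloud.

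Ratios between members do not depend on how the libraries are scaled. The reads of Bcl2l11 over those of Bcl2l1 went from 0.651 with the control vector to 0.804 with the GR vector, a change of 1.24-fold (exact 95% interval 1.11 to 1.38); this pair was chosen with the difference of Bcl2l11 known. Bax over Bcl2, a ratio often used as an index of apoptotic tendency, was 11.1 and 12.4, with a change of 1.12-fold whose interval (0.922 to 1.36) holds 1. Bak1 over Mcl1 was 0.148 and 0.145, with a change of 0.981-fold (0.834 to 1.15). Summed over the measured members, the pro-apoptotic genes had 6211 and 6205 reads and the pro-survival genes 4277 and 4178. Their ratio was 1.45 and 1.49, a change of 1.02-fold (0.967 to 1.08). Summed per kb of gene length the ratio was 2.77 and 2.71, a change of 0.979-fold, so its direction depends on how members are weighted.

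Some members share exonic bases with a neighbouring gene, and whether the counting used strand is not stated in these sources. Bid and its relative Bcl2l13 lie on opposite strands of chromosome 6 with 628 exonic bases in common, 17.7% of the exons of Bid, and Bcl2l13 had 2495 and 2421 reads. Bad shares 524 bases (20.5% of its GENCODE M21 exons) with Gpr137 (517 and 496 reads) on the other strand. The deposited length of Bad, 2007 bases, is below the 2558 bases of those exons. Whether the counted model of Bad held this overlap is therefore not known. Bak1 shares 437 bases (18.2%) with Ggnbp1 (104 and 104 reads) on the other strand. Bax shares 192 bases (12.2%) with the same-strand gene model Gm45808, and Bcl2 558 bases (6.09%) with an antisense model. The counts of these 5 genes are uncertain, and how many reads such sharing could move was not measured; Bcl2l13 had many more reads than Bid. Bcl2l11, Bcl2l1, Mcl1 and Bbc3 had no such overlap, and at most 0.498% of their 31-mers (stretches of 31 bases) occurred in another annotated gene.

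Among further genes of the apoptosis pathway, Birc6 and Usp9x were higher and Trp73 and Dynll1 lower in the GR library. Of 57 further genes listed by role, 53 were measured; Bcl2a1a, Bcl2a1b, Bcl2a1d and Bcl2l10 were not analysed here. The library test called 2 higher and 2 lower, 7.55% of the 53, beside 2.72% of all genes. Of the 46 with a mean of 50 reads or more it called 8.70%, beside 4.52% of the 12119 genes that reached that mean. The called genes are too few to set the lists apart from that background. The 46 were not matched to it in depth, and the lists were chosen with earlier results of these data known. The median log2 fold was -0.0066 over the 51 with more than 3 reads in either library. Birc6, a giant inhibitor of apoptosis protein and ubiquitin ligase, had 4682 and 5071 reads (fold 1.09, 95% interval 1.04 to 1.13). Usp9x, a deubiquitinase that stabilises Mcl1, had 5780 and 6281 reads (fold 1.09, 1.05 to 1.13). Trp73, a p53 relative that acts on Bbc3, had 1023 and 855 reads (fold 0.838, 0.765 to 0.919). Dynll1, a dynein light chain that binds Bim, had 1175 and 1000 reads (fold 0.854, 0.784 to 0.929). With the GC trend removed, Birc6 (adjusted p 0.189), Usp9x (0.416) and Trp73 (0.127) no longer passed the exact binomial test, and Dynll1 did (0.0239). With a preset dispersion of 0.01 in edgeR's exact test 0 of the 53 passed.

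Further family members and the steps after pore formation held no gene past the library test, which called 2.72% of all genes. Among genes with a mean of 50 reads or more it called 4.52%. Lists this short are too small to be set apart from that background. Bcl2l2 (Bcl-w), the 1 further pro-survival gene measured, had 1479 and 1468 reads. Of the 5 further multidomain genes, Bcl2l13 had a fold of 0.973 and Bok, a pore former related to Bax, one of 0.998. Of the 5 further BH3-only genes, Bnip3l had 1243 and 1256 reads, and Bnip3, of whose 31-mers 57.0% are shared with other genes, 558 and 611; both proteins are known for mitophagy. The 4 of these with 50 or more reads on average had log2 folds between -0.25 and 0.19. Among the 9 genes of mitochondrial release and the apoptosome the median log2 fold was 0.0083. There Vdac2, a channel that recruits Bak, had 3501 and 3511 reads, and Mtch2, a receptor for cleaved Bid, 3014 and 3154. Of the 4 other caspases listed, Casp2 had 2070 and 1984 reads and Casp8, the initiator that cleaves Bid, 414 and 391.

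The lists of inhibitors, receptors and regulators held the 4 genes named above, and the other genes in them did not pass the threshold. Among the 5 inhibitors of apoptosis, 4 had a fold above 1, beside 51.0% of genes with a mean of 50 reads or more. Of these 4, Birc3 had only 13 and 18 reads. Xiap, which blocks caspases directly, had 1589 and 1767 reads (fold 1.12, 1.04 to 1.19). Its adjusted p in the exact binomial test was 0.0579, and 0.0449 where genes under 10 reads were left out. With the GC trend removed the fold of Xiap was 1.06 (0.989 to 1.13), with an adjusted p of 0.611 in that test. In the death receptor route (7 measured; of the 6 with more than 3 reads in either library, 2 were above a fold of 1 and 4 below, with a median log2 fold of -0.12), Tnfrsf1a had 1415 and 1437 reads and Ripk1 962 and 867. Of the 8 transcription factors known to act on members, Atf4 had 9485 and 9526 reads and E2f1 3546 and 3508. Of the 9 protein-level regulators, Huwe1, a ubiquitin ligase for Mcl1, had 10574 and 10976 reads (fold 1.04, 1.01 to 1.07). The adjusted p of Huwe1 in the exact binomial test was 0.0880, and 0.721 with the GC trend removed (fold 1.02, 0.989 to 1.04). Dynll2, which binds Bmf, had 9680 and 9770 reads.

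**Figure D4:**
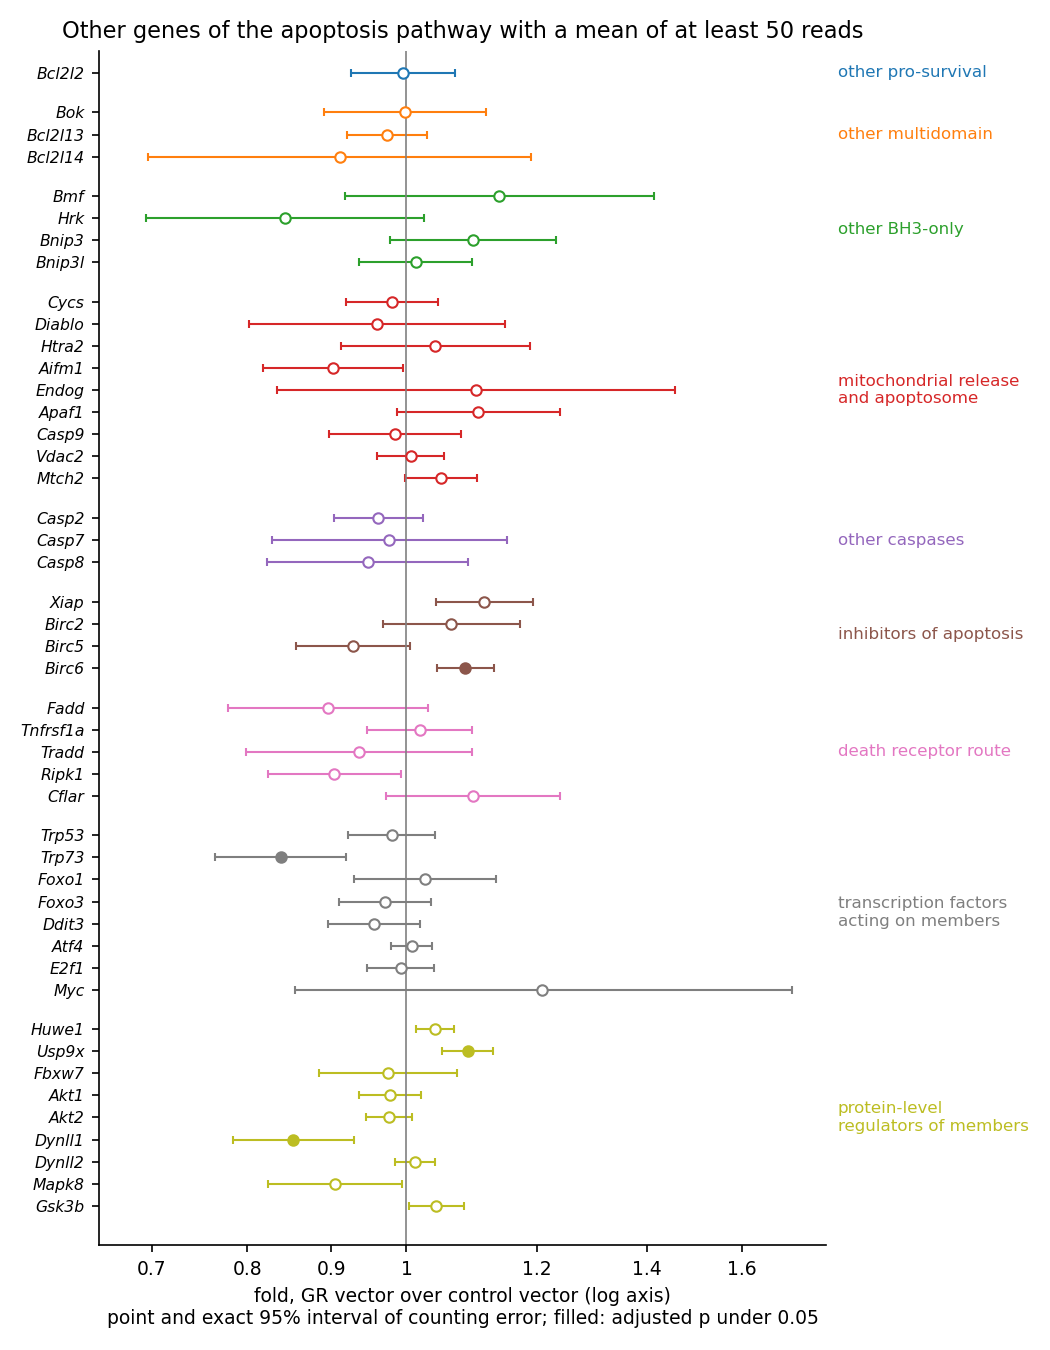
Fold of the GR library over the control library (log axis) with exact 95% intervals of counting error for the 46 further apoptosis genes read at least 50 times on average, grouped by role; filled symbols mark an adjusted p under 0.05. Birc6 and Usp9x are filled above a fold of 1, at 1.09 each, and Trp73 (0.838) and Dynll1 (0.854) below it.

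The authors' deposited enrichment report for the GR group listed a pair of apoptosis sets. Ranks here are among the 307 sets of that report, and sets outside it were not ranked. The apoptosis set of 136 genes had a normalized enrichment score of 1.01, 89th of 307 sets, with an FDR q of 0.938, and the apoptosis set shared by multiple species (32 genes) a score of 1.00, 135th, with a q of 0.963, both in the authors' deposited report. The members of these sets were not used here.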

How the data were processed

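Messenger RNA was sequenced in 2 libraries, 1 per vector, from RNA extracted with Trizol, per the labels' protocols. The authors deposited a normalized signal per gene, in which 100% of values lay within 0.01 reads of a multiple of a constant, so whole reads were recovered by division by it. They also deposited log2 fold changes, p-values and, in a gene set report, enrichment scores. The submitters' processing notes name DESeq2 1.10.1; aligner, counter and build are not stated there. The deposited gene length, in bases, equals the summed exons of GENCODE M21 (GRCm38) for every measured member but Bad; 21516 identifiers occur there, 96.8% with the same coordinates.

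Folds used TMM-scaled library sizes (edgeR 4.0.16) with exact 95% Clopper-Pearson intervals (scipy 1.17.1). Intervals and the library test cover counting error only, and the reads were not checked for PCR copies. With no replicates, the main test was this library test, which was tested on simulated data with counting error only. Those data held no spread between cultures, so they could not show how the test behaves with one. Genes with 3 reads or fewer in both libraries were given no fold in list medians. Genes named were all members and, from each further list, those past the test and the 2 with most reads. Likeness of pattern was not ranked, because a gene has only 2 values. One gene first listed is not reported here. Members and lists were chosen with earlier results of these data known. Alternatives were other scalings, a read filter, GC trend removal and preset dispersions.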

Additional observations from a re-analysis of the deposited data

How the results depend on the processing

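Over 6 alternatives, 50 of the 54 member folds kept their direction and their side of the threshold, and that of Bbc3, 1.00, was exactly 1 with DESeq2 size factors. The libraries were nearly equal in size, and the read filter and preset dispersions left the folds nearly as they were. Agreement of direction under those settings was therefore largely given in advance. The fold of Bcl2l11 was 1.17 and past the threshold with total reads, with DESeq2 size factors, with a minimum of 10 reads and with the GC trend removed. It missed the threshold with edgeR's exact test at preset dispersions of 0.01 and 0.04 (fold 1.17, adjusted p 1 in both), where the count of members called higher was 0. The fold of Bak1, next to 1, turned to 1.03 with the GC trend removed. Of the further pathway genes, 3 were called higher with a minimum of 10 reads, where Xiap passed (adjusted p 0.0449, exact binomial test); 0 were called higher and 1 lower with the GC trend removed, and 0 in either direction at both dispersions. Counts under GC removal, and at dispersion 0.04, were chosen after seeing the data. No paired analysis was possible because each group has 1 library. No library could be left out for the same reason, and a spread between cultures was not measured.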
